A study of Mus musculus with 24 samples.

Results

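Chromatin accessibility at the genes of the MITF and TFE transcription factors (Mitf, Tfec, Tfeb and Tfe3) was read from ATAC-seq, which sequences DNA that a transposase can reach and cut, in mouse macrophages grown from bone marrow. A peak of open chromatin belonged to a gene if the authors' deposited table paired it with that gene, or, for a peak without a row there, if the nearest listed transcription start site (TSS) within 50 kb was that gene's. In this way 91 of 144411 peaks were members, 59 by the authors' table and 32 by the nearest TSS: 51 of Mitf, 17 of Tfec, 17 of Tfeb and 6 of Tfe3. The rule itself read no measured level, but a peak with a row in the authors' table joined at any distance. Having a row went with level, as the 8 members too low to be tested all lacked one. The groups were GRIP1 knockout cells (KO, genotype LysM-Cre+/+; GRIP1fl/fl) and wild-type cells (WT, LysM-Cre+/+; GRIP1wt/wt) from male C57BL/6 mice 8 to 10 weeks old, each genotype given 10 ng/ml interleukin 4 (IL4), 100 nM dexamethasone (Dex, a synthetic glucocorticoid) or vehicle. Each of the 6 groups had 4 libraries, 24 in all. LysM-Cre, a recombinase driven by a myeloid promoter, was present in both genotypes, and the cells had been differentiated for 5 days in medium with L-cell conditioned medium. GRIP1, encoded by Ncoa2, is a coactivator of nuclear receptors. Treatment lasted 24 hours by the titles, although the vehicle libraries are also labelled 25 hours. Whether the 4 libraries of a group stem from different animals or dishes is not labelled, and the p-values therefore cover the spread among libraries, which may be technical.

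The MITF/TFE proteins are basic helix-loop-helix leucine zipper factors that bind E-box letters such as CACGTG as homodimers or heterodimers of the family. In most cells TFEB and TFE3 are kept in the cytoplasm by the kinase mTORC1 at the lysosome, with the Rag GTPases and folliculin, and on starvation they enter the nucleus and switch on lysosome and autophagy genes. MITF is known for its role in melanocytes, osteoclasts and mast cells and is made from several promoters, of which the most downstream gives the melanocyte form. In mice TFEC is found mainly in macrophages, and its RNA is known to be induced there by IL4.

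The starts of these genes differed in accessibility and in sequence, so 4 promoter windows of 300 bases, 250 before and 50 after the TSS, are printed from RefSeq (build GRCm38.p6, the mm10 build of the files), 5′ to 3′ on the strand of the gene. They are those of the single listed Tfec TSS (chr6:16898392-16898691, minus strand), the first listed Mitf TSS (chr6:97806808-97807107, plus strand), the most downstream listed Mitf TSS (chr6:97991533-97991832, plus strand) and the first listed Tfe3 TSS (chrX:7762411-7762710, plus strand). Capitals mark matches to the motifs named after the sequences.
Tfec: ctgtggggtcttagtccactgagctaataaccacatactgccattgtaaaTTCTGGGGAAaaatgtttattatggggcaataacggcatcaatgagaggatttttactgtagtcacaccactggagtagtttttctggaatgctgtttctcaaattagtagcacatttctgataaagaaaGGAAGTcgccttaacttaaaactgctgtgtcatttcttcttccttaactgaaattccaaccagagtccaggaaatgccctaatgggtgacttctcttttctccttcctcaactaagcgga
Mitf, first TSS: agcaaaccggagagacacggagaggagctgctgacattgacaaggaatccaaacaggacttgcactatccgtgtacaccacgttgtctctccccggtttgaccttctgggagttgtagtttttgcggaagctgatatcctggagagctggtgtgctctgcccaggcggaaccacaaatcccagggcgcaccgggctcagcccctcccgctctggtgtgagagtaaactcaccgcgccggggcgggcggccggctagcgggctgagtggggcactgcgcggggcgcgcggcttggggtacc
Mitf, most downstream TSS: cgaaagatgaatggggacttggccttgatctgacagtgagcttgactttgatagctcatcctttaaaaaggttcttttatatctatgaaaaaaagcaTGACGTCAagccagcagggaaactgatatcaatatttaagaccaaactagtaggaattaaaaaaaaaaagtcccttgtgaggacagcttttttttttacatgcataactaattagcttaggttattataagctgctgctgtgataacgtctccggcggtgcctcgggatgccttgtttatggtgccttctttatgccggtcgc
Tfe3: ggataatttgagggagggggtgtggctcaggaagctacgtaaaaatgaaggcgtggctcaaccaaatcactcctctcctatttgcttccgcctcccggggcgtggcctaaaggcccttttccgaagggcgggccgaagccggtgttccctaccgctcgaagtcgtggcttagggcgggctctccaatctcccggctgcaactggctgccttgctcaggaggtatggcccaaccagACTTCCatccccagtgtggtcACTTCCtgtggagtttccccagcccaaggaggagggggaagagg
Motifs were searched on both strands in 9 RefSeq windows of the 4 genes and in all 32851 RefSeq promoter windows of that length. The letters were GGAAGT (core of PU.1, the macrophage lineage factor), TTCNNNGAA and TTCNNNNGAA (STAT sites), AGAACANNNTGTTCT and its shorter part AGAACA (glucocorticoid receptor), CACGTG and CATGTG (E-boxes), TGACGTCA (CRE) and TGANTCA (AP-1). The Tfec window held GGAAGT 70 bases before the TSS and TTCTGGGGAA 200 bases before it, which 23.8% and 6.95% of all windows hold in some form. The first Mitf window held none of the motifs, and the most downstream Mitf window held TGACGTCA 153 bases before the TSS, as do 1.79% of all windows. The Tfe3 window held ACTTCC, which reads GGAAGT on the other strand, at 2 places around its TSS. Windows not printed held matches too. At Tfeb, the window of the RefSeq TSS at chr17:47737037 held GGAAGT. That of the TSS at chr17:47785744 held TTCCGATGAA, the same STAT form as at Tfec, 234 bases before the TSS. The window of the second listed Mitf TSS held AGAACA, and a further Tfe3 window held TGAATCA, which 19.0% and 7.81% of all windows hold in some form. None of the 9 windows held CACGTG, which 7.15% of all windows hold. A match is a description of these letters and not evidence of binding.

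Levels are CPM, counts divided by the TMM-scaled total of the library, and a peak is named by its gene and by its distance in kb from the first listed TSS of that gene, positive downstream. The first TSS lies at chr6:97807058 for Mitf, chr6:16898441 for Tfec, chr17:47737931 for Tfeb and chrX:7762661 for Tfe3. Total counts in peaks ran from 5820149 to 21939330 per library, so that 1 CPM stood for 5.42 to 21.4 counts. The WT Dex library of replicate 2 was the shallowest, with 2.57% of peaks at 0 counts and a place apart from the others on the fourth principal component. Macrophage markers were open, with a peak within 1 kb of the TSS at 7 of 7 genes and summed levels of 182 to 245 CPM over the 24 libraries. No peak was assigned within 1 kb of a listed TSS for the 4 fibroblast or the 4 melanocyte markers. One was for 4 of 6 osteoclast, 3 of 6 mast cell and basophil, 3 of 6 neutrophil and 4 of 6 dendritic cell markers. A marker whose TSS the authors' table does not list could get no peak, so a missing peak does not show closed chromatin. Such a peak was found at 2 of 5 B cell, 1 of 5 T and NK cell and 1 of 4 erythroid and megakaryocyte markers. At Ncoa2 itself, 2, 3 and 5 of 21 tested peaks differed between KO and WT with vehicle, Dex and IL4, a limited check because the labels do not name the deleted stretch.

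The 4 genes were open at their starts to unequal degrees. Averaged over the 24 libraries and divided by peak length, the first TSS peak had 65.4 CPM per kb at Tfe3, 37.6 at Tfeb, 25.4 at Mitf and 9.70 at Tfec. Tfec was thus the least open of the 4 at its start. No member peak overlapped the most downstream Mitf TSS, where the melanocyte form begins, and the nearest one lay 2830 bases away. Of the 91 peaks, 63 lay inside the annotated gene, 14 upstream and 14 downstream of it. The members' mean levels ran from 0.260 to 61.5 CPM, with a median of 3.01 CPM against 2.41 CPM over all peaks. Among the 91, 83 passed the filter on low counts and were tested, and the 8 that did not had mean levels of 0.260 to 0.626 CPM. At the 50 kb limit, the outermost peak admitted by the nearest TSS lay 49.0 kb away in Mitf (21.7 CPM, log2 fold change of -0.04 with IL4 in WT), and the nearest peak left out lay 53.7 kb away (1.32 CPM, log2 fold change of 0.50).

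IL4 opened the family's loci unevenly in WT cells, raising peaks of Mitf and Tfec most often and lowering those at the start of Tfe3. Of 83 tested member peaks, 39 rose and 10 fell with IL4, which is 59.0%, against 35.4% of all tested peaks, of which 19.3% rose and 16.1% fell (edgeR's quasi-likelihood test, adjusted p below 0.05). Rises were called at 22 of 45 Mitf, 11 of 17 Tfec, 6 of 16 Tfeb and 0 of 5 Tfe3 peaks, and falls at 2, 1, 4 and 3 of them in the same order of genes. The median log2 fold change was 0.48 over Mitf, 0.45 over Tfec, 0.03 over Tfeb and -0.32 over Tfe3 peaks, against -0.01 over all tested peaks. Upstream of the first TSS, 4 of 5 Mitf peaks rose and 0 fell, and 4 of 6 Tfec peaks rose and 1 fell. Downstream of it, 18 of 39 Mitf peaks rose and 2 fell, and 6 of 10 Tfec peaks rose and 0 fell. Of the 9 members that carry a FANTOM enhancer identifier in the authors' deposited table, 8 rose and 0 fell, while 25.1% of the 9911 tested peaks with such an identifier rose and 23.6% fell.

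**Figure D1:**
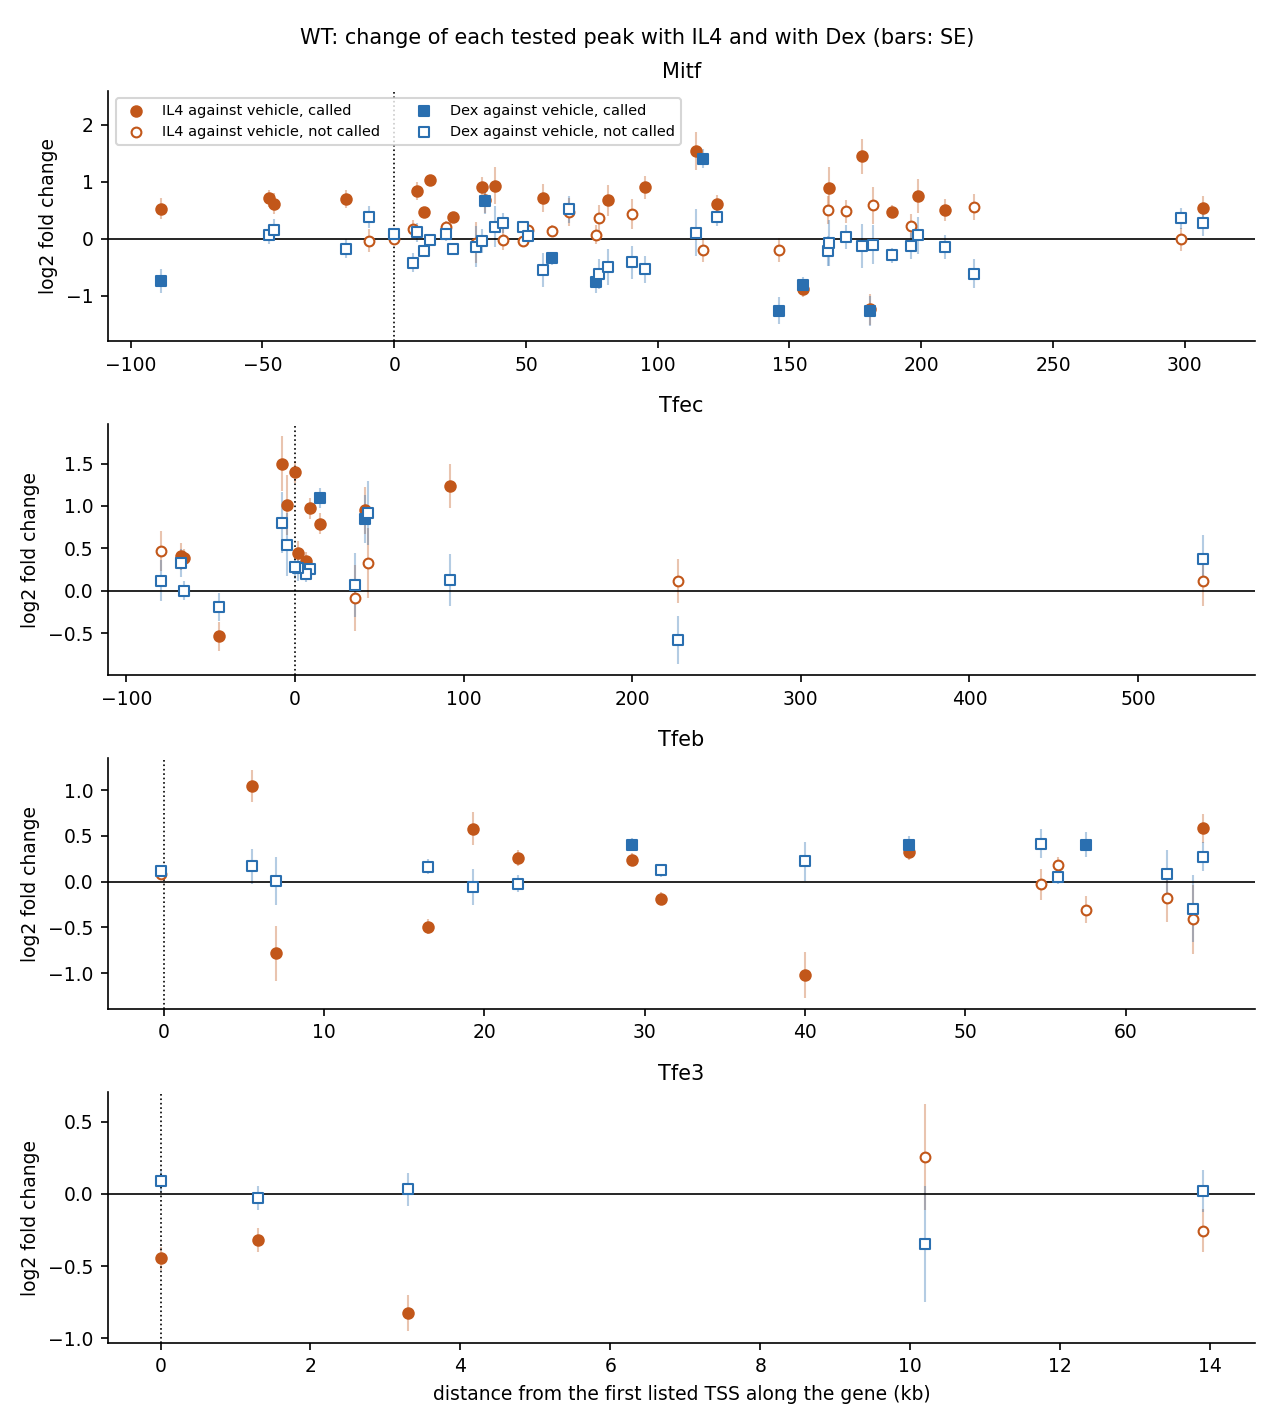
Log2 fold change with IL4 (orange circles) and with Dex (blue squares), each against vehicle in WT, for every tested peak of Mitf, Tfec, Tfeb and Tfe3 (y axis), by its distance in kb from the first listed TSS (x axis, dotted line at the TSS); bars are standard errors and filled symbols passed an adjusted p below 0.05. IL4 raised 22 Mitf and 11 Tfec peaks, while 3 Tfe3 peaks fell and none rose.

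Marker peaks of other cell types moved with IL4 as well. In WT, the 1 T and NK cell marker with a TSS peak, Klrb1c, had 18.6 to 23.2 CPM with IL4 against 8.83 to 12.8 CPM with vehicle, and the 1 erythroid and megakaryocyte marker with one, Itga2b, had 29.6 to 33.7 CPM against 17.4 to 21.0 CPM. The defining genes Cd3e, Cd3d, Lck, Gata1 and Hba-a1 had no peak assigned at a listed TSS, with the limit given above. The 4 of 6 osteoclast markers with a TSS peak summed to 41.3 to 49.0 CPM with IL4 and 41.1 to 48.0 CPM with vehicle, but moved in both directions. Acp5 had 10.4 ± 1.38 CPM with IL4 and 6.66 ± 1.04 CPM with vehicle, and Ctsk had 6.06 ± 1.15 CPM with IL4 and 2.97 ± 0.35 CPM with vehicle (SD, n = 4 each), and both rose (edgeR, adjusted p = 9.68e-05 and 2.18e-07). Nfatc1, the largest part of the sum, fell, with 24.1 ± 1.48 CPM with IL4 and 30.1 ± 1.50 CPM with vehicle (adjusted p = 0.000702), and Mmp9 did not pass (adjusted p = 0.494). The summed macrophage markers ran from 182 to 193 CPM with IL4 and 205 to 228 CPM with vehicle, and the summed dendritic cell markers from 24.6 to 28.3 CPM and 27.7 to 30.4 CPM. Macrophage markers moved in both directions as well. Mertk rose, with 8.86 CPM with IL4 and 3.67 CPM with vehicle (edgeR, adjusted p = 2.00e-12). Cd68, Spi1 and Fcgr1 fell (adjusted p = 2.54e-06, 2.46e-08 and 0.000372), and Csf1r, Adgre1 and Itgam did not pass. Of the dendritic cell markers only Flt3 passed, with a fall (adjusted p = 0.0437). With Dex, the 3 neutrophil markers with a TSS peak summed to 36.2 to 41.5 CPM, against 28.3 to 33.6 CPM with vehicle. Of these only S100a8 passed, at 25.8 ± 2.30 CPM with Dex and 17.2 ± 2.62 CPM with vehicle (edgeR, adjusted p = 3.08e-06). Cebpe was lower with Dex, at 11.7 against 12.9 CPM, and Ngp had 0.770 against 0.518 CPM (adjusted p = 0.384 and 0.560). With IL4, Cebpe rose (edgeR, adjusted p = 0.00973). Among the other markers, Siglech, Adgre1 and Itgam rose with Dex in WT and Mmp9 fell (edgeR, adjusted p = 0.00965, 0.00432, 0.0407 and 0.000741). The part of these other cell types in the results was not tested.

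Tfec, the macrophage member, rose at its promoter with IL4. In WT, the TSS peak (chr6:16898159-16898856) held 12.7, 11.5, 10.5 and 10.9 CPM in the 4 IL4 libraries, against 4.76, 4.02, 3.84 and 4.53 CPM in the 4 vehicle libraries. Every IL4 library lay above every vehicle library. The log2 fold change was 1.40 ± 0.13 (SE), a 2.64-fold rise (edgeR, adjusted p = 2.44e-15). In KO, the same peak held 7.77, 11.0, 10.7 and 9.39 CPM with IL4 and 4.85, 4.19, 4.97 and 3.85 CPM with vehicle, again without overlap, and the log2 fold change was 1.15 ± 0.14 (adjusted p = 4.26e-11). Dex libraries stayed between 4.06 and 5.69 CPM in WT, and the change of 0.29 ± 0.15 against vehicle did not pass (adjusted p = 0.198). Most gene starts did not behave this way under TMM scaling. Of 13873 tested peaks within 1 kb of a listed TSS, 6.29% rose and 43.0% fell with IL4 in WT. Their median log2 fold change was -0.21, and 126 of them had a larger change than the Tfec promoter. Their shares under other scalings are not given here.

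Around the Tfec promoter, IL4 also raised the peaks on either side in WT. The most open Tfec peak, at +6.5 kb, had 17.2, 18.6, 19.8 and 17.2 CPM with IL4 and 12.7, 14.4, 16.8 and 13.3 CPM with vehicle, a log2 fold change of 0.36 ± 0.10 (edgeR, adjusted p = 0.00265). The largest rise of Tfec was at -7.8 kb (chr6:16906120-16906329), with 1.74, 1.23, 2.14 and 1.49 CPM with IL4 against 0.614, 0.559, 0.427 and 0.618 CPM with vehicle, and a log2 fold change of 1.50 ± 0.33 (adjusted p = 0.00012). These are few counts, and the groups did not overlap at this peak, which was picked for its large change. With vehicle, KO libraries held 1.37, 0.852, 1.44 and 0.642 CPM, all above the WT vehicle libraries, although the difference did not pass. The KO IL4 call was lost without the KO IL4 library of replicate 2 or the KO vehicle library of replicate 4. The call for IL4 against Dex in WT was lost in 6 settings. In WT, a distal peak at +91.9 kb rose by 1.24 ± 0.26 with IL4 (adjusted p = 8.16e-05), and the single Tfec peak that fell, at -45.2 kb, changed by -0.54 ± 0.17 (adjusted p = 0.00916). The pair of Tfec peaks farthest from the gene, 227.0 and 538.3 kb from its TSS in the authors' deposited table, did not pass with either agent.

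The Tfec peak at +14.5 kb (chr6:16883565-16884353), which carries a FANTOM enhancer identifier, rose with both agents. In WT it held 12.1, 15.3, 12.7 and 12.9 CPM with Dex, 10.7, 10.0, 10.6 and 11.1 CPM with IL4, and 6.45, 6.15, 6.19 and 5.57 CPM with vehicle. The Dex libraries were the highest, the IL4 libraries were next and the vehicle libraries were lowest, with no overlap between groups. The log2 fold change was 1.09 ± 0.12 for Dex (edgeR, adjusted p = 4.37e-12) and 0.79 ± 0.12 for IL4 (adjusted p = 9.92e-08), each against the same vehicle libraries. IL4 against Dex gave -0.30 ± 0.11 (adjusted p = 0.0148). That call was lost at -0.19 when libraries were scaled to their total counts, at -0.26 without the WT Dex library of replicate 2, the highest of its group, and at -0.26 without the WT IL4 library of replicate 2, the lowest of its group (edgeR, adjusted p = 0.140, 0.0503 and 0.0694). Without that Dex library the Dex change was 1.05. In KO the peak also rose, by 0.90 ± 0.12 with Dex (adjusted p = 3.99e-09) and by 0.63 ± 0.12 with IL4 (adjusted p = 1.64e-05).

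**Figure D2:**
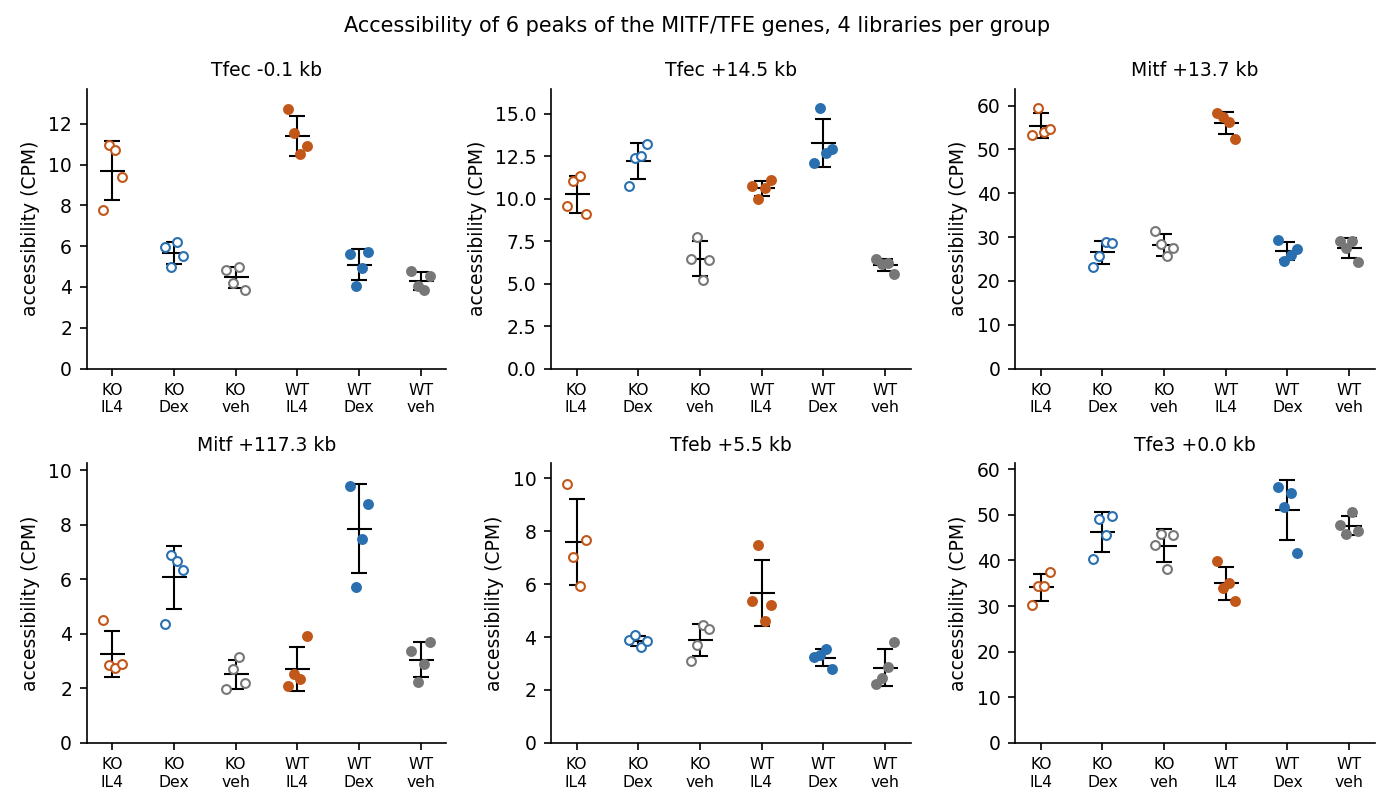
Accessibility in CPM (y axis) of 6 peaks in the 24 libraries, by genotype and treatment (x axis; KO open circles, WT filled circles; orange IL4, blue Dex, grey vehicle); black marks are the mean and SD of 4 libraries, and titles give the distance from the first listed TSS. The Tfec -0.1 kb, Mitf +13.7 kb and Tfeb +5.5 kb peaks are high with IL4, Mitf +117.3 kb with Dex, Tfec +14.5 kb with both agents, and Tfe3 +0.0 kb is low with IL4.

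Mitf, the factor of osteoclasts and melanocytes, changed inside its long locus, while its first start did not pass. The first TSS peak (chr6:97806503-97807636) held 29.1, 28.2, 30.3 and 26.8 CPM with IL4 and 27.4, 30.0, 31.1 and 27.1 CPM with vehicle in WT. These groups overlapped, and the log2 fold change was -0.01 with a 95% interval of -0.17 to 0.14. The most open Mitf peak, at +13.7 kb (chr6:97820391-97821202) and with a FANTOM identifier, held 58.3, 57.3, 56.2 and 52.3 CPM with IL4 against 29.0, 27.5, 29.0 and 24.3 CPM with vehicle. All IL4 libraries lay above all vehicle libraries, and the log2 fold change was 1.03 ± 0.07 (edgeR, adjusted p = 6.94e-22). With Dex the WT libraries held 29.4, 24.6, 26.0 and 27.2 CPM, a change of -0.02 ± 0.08. In KO the peak held 53.3, 59.5, 54.1 and 54.8 CPM with IL4 and 31.5, 28.4, 25.6 and 27.4 CPM with vehicle, and the log2 fold change was 0.98 ± 0.07 (adjusted p = 2.29e-20).

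Farther into Mitf, neighbouring peaks changed with different agents. The peak at +117.3 kb (chr6:97924165-97924611), which lies 5.4 kb before the second listed TSS, held 9.43, 5.72, 7.47 and 8.77 CPM with Dex in WT, against 3.38, 2.24, 2.88 and 3.71 CPM with vehicle. It rose without overlap, by 1.40 ± 0.17 (edgeR, adjusted p = 2.66e-10), and by 1.48 without the Dex library of replicate 2. With IL4 it held 2.07, 2.52, 2.35 and 3.91 CPM, which overlapped the vehicle libraries, and IL4 against Dex gave -1.61 ± 0.17 (adjusted p = 1.12e-13). The adjoining peak at +114.6 kb showed the other pattern: 1.98, 1.52, 1.63 and 1.49 CPM with IL4, 0.704, 0.554, 0.739 and 0.467 CPM with Dex, and 0.384, 0.782, 0.748 and 0.412 CPM with vehicle. There the log2 fold change was 1.54 ± 0.34 for IL4 (adjusted p = 0.000135) and 0.10 ± 0.41 for Dex, against the same vehicle libraries. Counts were few there, and the peak would not have passed the filter on low counts without its high IL4 libraries. Its IL4 call in WT was kept when no filter was used. Next to the second listed TSS, the +122.4 kb peak rose by 0.61 ± 0.15 with IL4 (adjusted p = 0.000851), while its Dex change of 0.39 ± 0.16 did not pass (adjusted p = 0.0797).

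Other Mitf peaks fell, some with both agents and some with Dex. At +155.2 kb (chr6:97961787-97962666), WT libraries held 5.42, 3.88, 4.35 and 5.18 CPM with Dex, 5.29, 4.62, 3.87 and 4.84 CPM with IL4, and 9.99, 9.28, 7.26 and 7.73 CPM with vehicle. Both treated groups lay below vehicle, with log2 fold changes of -0.82 ± 0.14 for Dex (edgeR, adjusted p = 6.04e-06) and -0.88 ± 0.15 for IL4 (adjusted p = 4.52e-07). Both changes are against the same vehicle libraries, so they are not independent. The +180.6 kb peak, 4.1 kb before the most downstream TSS, also fell with both, again against shared vehicle libraries. Its fall on the log2 scale was 1.27 with Dex (edgeR, adjusted p = 0.000176) and 1.24 with IL4 (adjusted p = 8.98e-05). At +146.0 kb, by contrast, Dex libraries held 1.13, 1.48, 1.48 and 1.07 CPM, IL4 libraries 2.98, 2.63, 3.06 and 1.68 CPM, and vehicle libraries 2.30, 3.91, 3.31 and 2.58 CPM. The Dex groups did not overlap and the change was -1.26 ± 0.24 (adjusted p = 3.57e-05), whereas the IL4 change of -0.19 ± 0.21 did not pass, and IL4 against Dex was 1.07 ± 0.24 (adjusted p = 0.000105). The +177.5 kb peak rose with IL4, by 1.44 ± 0.31 (adjusted p = 0.000113), with 1.82, 2.17, 1.33 and 1.68 CPM against 1.08, 0.447, 0.320 and 0.618 CPM with vehicle. This peak too would not have passed the filter on low counts without its high IL4 libraries. Its IL4 call in WT was kept when no filter was used.

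Dex by itself changed the family about as often as it changed peaks in general. In WT, 7 member peaks rose and 6 fell of 83, which is 15.7%, against 16.6% of all tested peaks (8.56% higher and 8.08% lower). The split moved to 5 higher and 9 lower when libraries were scaled to total counts. Calls over all tested peaks moved the same way, with 8586 of 21393 called peaks higher, against 11137 of 21655 as reported. The falls were all in Mitf (6 of 45), and the rises were spread over Mitf (2), Tfec (2 of 17) and Tfeb (3 of 16). No Tfe3 peak passed in 5. The count without the WT Dex library of replicate 2 was again 7 higher and 6 lower.

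Tfeb, a lysosome and autophagy regulator, did not pass at its first TSS peak with either agent, while peaks inside the gene changed. The TSS peak (chr17:47736898-47738533) had the highest CPM of all members over its 1636 bases, although per kb of peak its 37.6 CPM lay below the 50.4 CPM of the Tfeb peak at +31.0 kb. It held 62.7, 61.6, 56.4 and 62.2 CPM with IL4, 60.1, 70.7, 62.6 and 58.5 CPM with Dex, and 56.1, 62.9, 55.6 and 55.3 CPM with vehicle in WT. These overlapped, and the log2 fold changes of 0.08 ± 0.07 for IL4 and 0.12 ± 0.07 for Dex did not pass (edgeR, adjusted p = 0.367 and 0.252). The +22.1 kb peak, 0.7 kb from the second listed TSS, changed by 0.26 with IL4 in WT. Of the 13873 peaks near a TSS, 1277 had a larger change. Within each genotype, every IL4 library there lay above every vehicle library. This peak was also named after its values were seen. In WT, at +5.5 kb (chr17:47743108-47743724), IL4 libraries held 5.37, 7.49, 4.59 and 5.22 CPM and vehicle libraries 2.23, 2.46, 2.88 and 3.81 CPM. The groups did not overlap, and the change was 1.05 ± 0.17 (adjusted p = 5.81e-07) in WT and 0.96 ± 0.16 in KO (adjusted p = 6.37e-07). The opposite held at +40.0 kb, where IL4 libraries had 1.07, 1.52, 0.918 and 0.931 CPM and vehicle libraries 1.61, 2.57, 2.88 and 2.58 CPM, a change of -1.02 ± 0.25 (adjusted p = 0.000656). With Dex, 3 Tfeb peaks rose by about the same small step: 0.40 on the log2 scale at +29.2 kb, at +46.5 kb and at +57.5 kb, of which the peaks at +46.5 and +57.5 kb were named after their values were seen. The +29.2 kb peak held 44.3, 40.8, 39.0 and 41.1 CPM with Dex, 36.5, 36.9, 36.3 and 38.0 CPM with IL4 and 30.6, 28.6, 33.3 and 32.5 CPM with vehicle, and its Dex change had an SE of 0.07 (adjusted p = 1.1e-05).

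Tfe3, which acts beside TFEB in lysosome gene control, fell at all 3 of its TSS-proximal peaks with IL4. In WT, the first TSS peak (chrX:7762381-7763036) held 39.8, 34.1, 35.1 and 31.0 CPM with IL4, against 47.7, 45.8, 50.6 and 46.4 CPM with vehicle. All IL4 libraries were lower, and the log2 fold change was -0.44 ± 0.08 (edgeR, adjusted p = 7.07e-06). The next peak, at +1.3 kb, changed by -0.32 ± 0.08 (adjusted p = 0.00151), and the +3.3 kb peak by -0.83 ± 0.13 (adjusted p = 6.1e-08). Gene starts fell widely with IL4 under TMM scaling, as the median of -0.21 over 13873 peaks shows. Of those peaks, 1551, 3640 and 182 had a lower value than the first, the +1.3 kb and the +3.3 kb Tfe3 peaks. When libraries were scaled by a smooth curve over peak level the first Tfe3 peak still passed at -0.24, and the +3.3 kb peak at -0.81. The +1.3 kb peak was not among the named peaks, and its value under this scaling is not given here. With Dex the first peak held 56.2, 51.7, 54.7 and 41.6 CPM, a change of 0.09 ± 0.08 that did not pass.

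**Figure D3:**
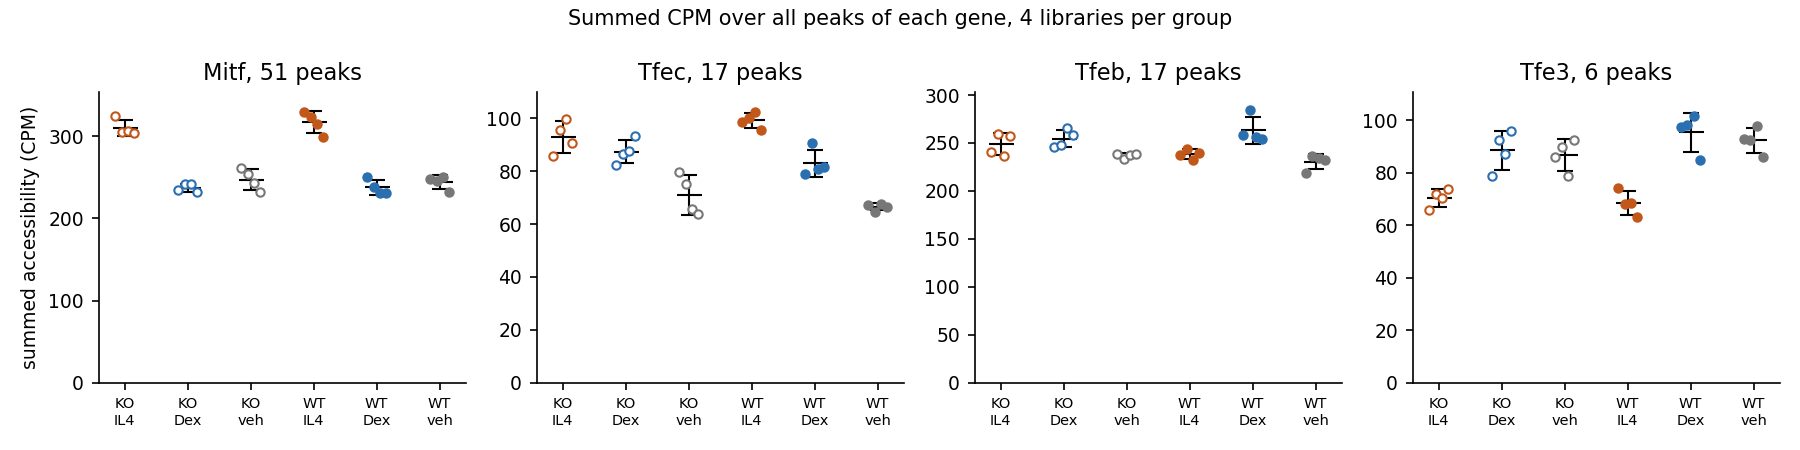
Summed CPM over all member peaks of each gene (y axis) in the 24 libraries, by genotype and treatment (x axis; KO open, WT filled), with mean and SD of 4 libraries. In WT, IL4 libraries sum to 299 to 330 CPM at Mitf against 232 to 251 CPM with vehicle, and to 63.2 to 74.1 CPM at Tfe3 against 85.9 to 97.9 CPM.

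Summed over all peaks of a gene, these changes differed by locus. In WT the Mitf sum averaged 317 ± 13.2 CPM with IL4, 238 ± 9.56 CPM with Dex and 244 ± 8.45 CPM with vehicle (SD, n = 4 each). The IL4 libraries lay above both other groups. The Tfec sum was 99.1 ± 2.72 CPM with IL4, 82.9 ± 5.15 CPM with Dex and 66.5 ± 1.32 CPM with vehicle, so that none of these 3 groups overlapped. At Tfeb the sums were 238 ± 4.95 CPM with IL4, 263 ± 13.9 CPM with Dex and 230 ± 7.68 CPM with vehicle, and Dex libraries alone stood clear of vehicle. At Tfe3 they were 68.5 ± 4.43, 95.5 ± 7.43 and 92.3 ± 4.91 CPM with IL4, Dex and vehicle, with IL4 lowest. In bulk samples a change in the mix of cells and a change within each cell cannot be told apart.

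No member peak passed the test between KO and WT cells, under any treatment. With vehicle, Dex and IL4, 0 of 83 passed in edgeR and 0 in DESeq2, against 0.616%, 0.953% and 0.841% of all tested peaks in edgeR. An unadjusted p below 0.05 was found at 6, 7 and 5 of the 83, against 9.08%, 10.1% and 9.15% of all tested peaks. The smallest adjusted p was 0.207, 0.188 and 0.295. The interval of the difference was narrow at the strong peaks: with vehicle, KO minus WT was 0.04 at Mitf +13.7 kb (95% interval -0.12 to 0.19), 0.08 at the Tfeb TSS (-0.05 to 0.22) and -0.13 at the Tfe3 TSS (-0.29 to 0.03). At the Tfec TSS it was 0.02, with a wider interval of -0.30 to 0.34. The member closest to passing under Dex was Mitf +117.3 kb, with 4.38, 6.88, 6.69 and 6.34 CPM in KO against 9.43, 5.72, 7.47 and 8.77 CPM in WT (log2 difference -0.41, adjusted p = 0.188). These libraries overlapped.

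The IL4 effects in KO cells ran the same way as in WT cells. In KO, 23 member peaks rose and 7 fell of 83, which is 36.1%, against 31% of all tested peaks (17% higher and 13.9% lower), and the median log2 fold change was 0.24 in KO and 0.39 in WT. The KO and WT effects share no library. All 49 members called in WT had the same direction in KO, as did 98.0% of all peaks called in WT, and 28 were called in both, which is 93.3% of the KO calls and 57.1% of the WT calls, against 79.6% and 69.6% over all tested peaks. Among the 49, the KO change was the smaller in 43 (87.8%), against 73.9% of all peaks called in WT, a comparison on peaks picked by their WT values. The difference itself, tested as an interaction, passed at 0 of 83 members in edgeR and 0 in DESeq2 (3 with an unadjusted p below 0.05), and at 0.00231% of all tested peaks. For the Tfec TSS the KO minus WT difference of the IL4 effects was -0.25 (95% interval -0.64 to 0.13), for Mitf +13.7 kb -0.05 (-0.26 to 0.15), and for the first Tfe3 peak 0.10 (-0.13 to 0.32). The lowest unadjusted p was at Tfe3 +3.3 kb, whose fall was 0.39 in KO and 0.83 in WT on the log2 scale (difference 0.44, 95% interval 0.09 to 0.78, edgeR unadjusted p = 0.0150, adjusted p = 1.00). The KO call there was lost without the KO IL4 library of replicate 3 or the KO vehicle library of replicate 2.

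**Figure D4:**
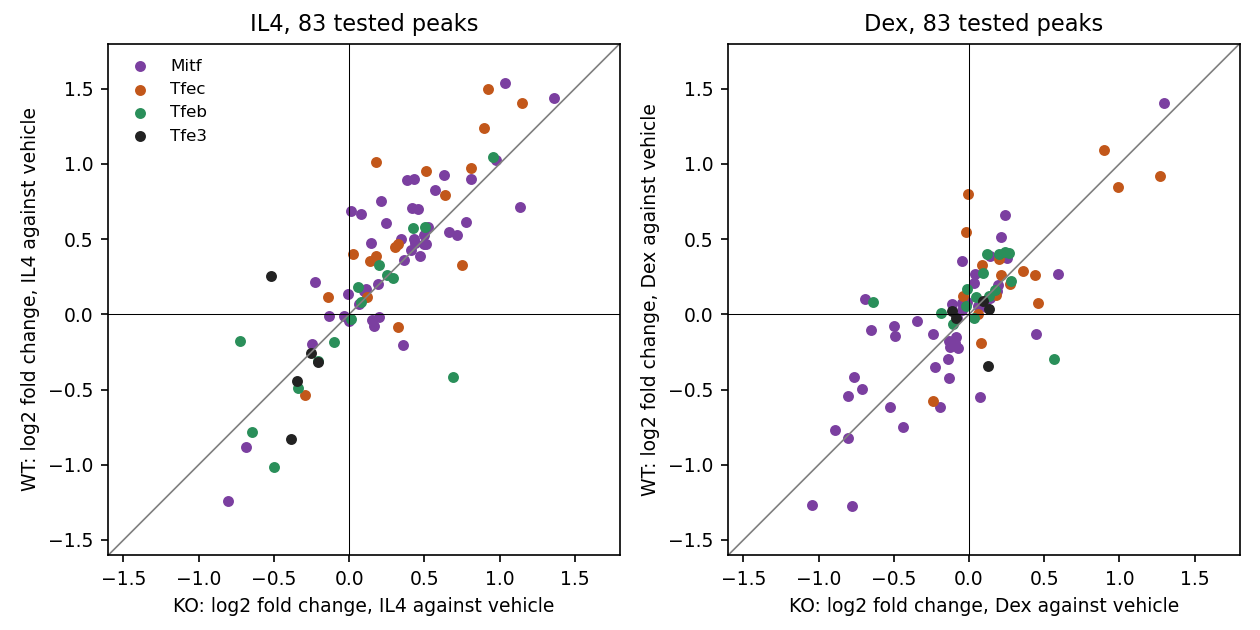
Log2 fold change in KO (x axis) and in WT (y axis) of the 83 tested peaks, for IL4 against vehicle (left) and Dex against vehicle (right), coloured by gene; the grey line marks equal change. The 49 peaks called with IL4 in WT all share their sign in KO, as do 98.0% of all peaks so called. Of the 49, 43 lie nearer to 0 in KO, against 73.9% of all peaks so called, and these peaks were picked by their WT values.

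Dex in KO gave 7 rises and 6 falls among the 83, or 15.7%, against 13.6% of all tested peaks (6.97% higher and 6.63% lower). Without the KO vehicle library of replicate 4 the count was 7 in all. Of the 13 members called in WT, all had the same direction in KO and 8 were called in both, which is 61.5% of either list. Over all tested peaks, 97.7% of the WT calls had the same direction in KO, and the peaks called in both were 68.2% of the KO calls and 55.7% of the WT calls. The Dex interaction passed at 0 of 83 members in edgeR and 0 in DESeq2 (1 with an unadjusted p below 0.05) and at 0% of all tested peaks. At Mitf +117.3 kb the Dex rise was 1.29 ± 0.18 in KO (adjusted p = 6.38e-08) and the difference from WT was -0.11 (95% interval -0.62 to 0.40). The Tfec +43.3 kb peak had its Dex rise called in KO, by 1.27 ± 0.36 (adjusted p = 0.00917), and not in WT, where it was 0.92 ± 0.38 (adjusted p = 0.0878), with a difference that did not pass. That KO call was lost without the KO vehicle library of replicate 4. At Tfeb +62.6 kb the KO falls of 0.64 with Dex and 0.72 with IL4 (adjusted p = 0.0488 and 0.0131) were both lost without the KO vehicle library of replicate 3, which held 4.32 CPM against 2.11 to 2.38 CPM in the other vehicle libraries. The IL4 call was also lost without the KO IL4 library of replicate 1, and the Dex call in 16 settings in all.

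IL4 was also set against Dex directly in WT. Here 36 members were higher with IL4 and 13 lower, which is 59.0% of 83, against 45.1% of all tested peaks (23.4% higher and 21.7% lower). Mitf had 27 higher and 2 lower of 45, and Tfe3 none higher and 3 lower of 5. The Tfec TSS was higher with IL4 by 1.12 ± 0.12 (edgeR, adjusted p = 8.14e-13), the Mitf +13.7 kb peak by 1.05 ± 0.07 (adjusted p = 2.62e-23), and the Tfeb +40.0 kb peak lower by 1.24 on the log2 scale, with a change of -1.24 ± 0.23 (adjusted p = 5.1e-06).

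Genes of the same pathway were read from 3 lists. In the list of regulators that control TFEB and TFE3 at the lysosome (19 of 23 genes with a tested peak), 32 of 193 peaks rose and 28 fell with IL4 in WT, 31.1% in all against 35.4% of all tested peaks. With Dex 15 rose and 13 fell, 14.5% against 16.6% of all tested peaks. Rptor, the substrate-binding subunit of mTORC1, had a peak at 5.71 ± 1.06 CPM with IL4 and 1.15 ± 0.35 CPM with vehicle (n = 4 each), a rise of 2.24 on the log2 scale. A peak of Ppp3ca, the calcineurin catalytic subunit that dephosphorylates TFEB, fell with both agents. Its falls were 1.30 with Dex and 0.87 with IL4, against the same vehicle libraries. A peak of Fnip2, a folliculin partner, rose by 1.15 with Dex. The list's median was 0.01 with IL4 and 0.02 with Dex, against -0.01 and 0.01 over all tested peaks.

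In the list of lysosome and autophagy genes known as TFEB targets (27 of 29 genes with a tested peak), 55 of 232 peaks rose and 37 fell with IL4, 39.7% in all against 35.4% of all tested peaks. With Dex 37 rose and 16 fell, 22.8% against 16.6%. The medians were 0.03 with IL4 and 0.09 with Dex, against -0.01 and 0.01 over all tested peaks. Atp6v0d2, a proton pump subunit of osteoclasts and macrophages, had a peak 67 bases from its TSS at 21.7 ± 1.84 CPM with IL4, 1.51 ± 0.93 CPM with Dex and 2.24 ± 0.46 CPM with vehicle. Its IL4 rise of 3.30 ± 0.16 on the log2 scale (edgeR, adjusted p = 6.97e-29) was the largest in the list. Its sister gene Atp6v0d1 had a peak that rose with Dex, by 1.60 ± 0.17 (adjusted p = 2.54e-12). A peak of Clcn7, the lysosomal chloride transporter, fell with both, by 1.57 with Dex and 1.39 with IL4, against the same vehicle libraries.

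In the list of MITF and TFE targets of osteoclasts and macrophages (15 of 15 genes), 66 of 190 peaks rose and 28 fell with IL4, 49.5% in all against 35.4% of all tested peaks, with a median of 0.19 against -0.01. With Dex, 22 rose and 24 fell, 24.2% against 16.6%, with a median of -0.05 against 0.01. A peak of Met, the hepatocyte growth factor receptor, rose by 2.40 ± 0.23 with IL4 (edgeR, adjusted p = 6.16e-10), at 10.3 ± 1.53 CPM against 1.91 ± 0.51 CPM with vehicle. A peak of Ocstamp, a fusion gene of osteoclasts, fell by 2.73 with IL4 and 1.87 with Dex, against the same vehicle libraries. Its counts were few: 0.182 ± 0.15 CPM with IL4, 0.341 ± 0.07 CPM with Dex and 1.18 ± 0.94 CPM with vehicle.

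The promoter peaks of other genes most like the strongest member peaks were found by Pearson's r over the 24 libraries, which share their groups and depth, among 13843 to 13862 peaks within 1 kb of a TSS. For Mitf +13.7 kb they were Itga2b (r = 0.970), Mir6541 (0.969) and Itgax (0.967), and for the first Tfe3 peak Gins2 (0.965), Ensa (0.964) and Tmx2 (0.960). For Tfec +6.5 kb they were Emp1 (0.783), Scn2b (0.770) and Vcam1 (0.742). The Tfeb TSS peak, which did not pass with either agent against vehicle in WT, found only weaker likeness, with Cyp1a1 (0.652), Soga1 (0.651) and Cd226 (0.647).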

How the data were processed

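ATAC-seq was read in 24 libraries of 6 groups of 4. The authors deposited whole-number read counts for 144411 peaks, not normalized, and a second table with the authors' log2 fold changes, F scores and p-values for part of the peaks. Per the submitters' processing notes, edgeR, featureCounts, MACS2, SAMtools, Bowtie2 and fastp were used, with no role or version named, on the mm10 build. How transposase offsets and duplicates were handled is not given there. Groups and replicate numbers came from the titles. The deposited log2 fold changes served only as a check: over 59 member peaks they differed from those computed here by at most 0.03.

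The counts were tested with edgeR 4.0.16 under R 4.3.3. The filter filterByExpr kept 130103 peaks and removed 14308. TMM factors ran from 0.935 to 1.07, a tested peak held a median of 33 counts in a library, and 1 robust quasi-likelihood model with a mean per group was fitted to all libraries. Benjamini-Hochberg adjustment ran over all tested peaks, with calls at an adjusted p below 0.05. An SE is the log2 fold change divided by the square root of F. The tests were tried on simulated data. The members, the 3 gene lists and the markers were chosen with earlier results of these data known. For each gene the named peaks were the most open, the most open near a TSS and the called peaks with the largest rise and fall per comparison, 23 in all. Libraries were not paired by replicate number, because nothing in the labels ties them, and whether they are paired is not known. Alternatives were DESeq2 1.42.0, RLE, total-count and loess scaling, no filter, a replicate block, each library left out, and narrower peak assignment. Exon and intron annotation was not used here. PCR duplicates and counting error are not separated.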

Additional observations from a re-analysis of the deposited data

Results flagged for a closer look

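In 138 groups of 4 libraries, read at the 23 named peaks, 5 had a highest library whose gap to the others took more of the group's range than Dixon's critical value allows; chance alone gives about 1 in 20. Mitf +117.3 kb had 4.51 CPM in the KO IL4 library of replicate 1, against 2.74 to 2.89 CPM in the other 3. Mitf +180.6 kb had 2.66 CPM in the KO vehicle library of replicate 4, against 1.99 to 2.09 CPM. The Tfeb TSS peak had 62.9 CPM in the WT vehicle library of replicate 2, against 55.3 to 56.1 CPM, and 64.4 CPM in the KO vehicle library of replicate 4, against 59.4 to 59.8 CPM. Tfeb +62.6 kb had 4.32 CPM in the KO vehicle library of replicate 3, against 2.11 to 2.38 CPM.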

How the results depend on the processing

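Over the 23 named peaks, 61 called values were recomputed under 1830 alternatives: 1767 kept their direction and their call, 62 lost the call and 1 changed sign. Of the 61, 47 were called under every alternative. Of 5070 recomputed values that were not called, 19 passed and 1 changed sign. The sign changes were both in IL4 against Dex in WT under loess scaling: the Tfeb TSS peak was 0.31 there (adjusted p = 1.19e-06), against -0.03, and Tfeb +29.2 kb was 0.10 (adjusted p = 0.198), against -0.16 (adjusted p = 0.0469); the cause was not tested. The call at Tfeb +29.2 kb was lost in 14 settings and the Dex fall in KO at Tfeb +62.6 kb in 16. The Dex rise in WT at Tfec +41.4 kb was lost in 5 settings, and the Dex fall in KO at Mitf +180.6 kb in 5.

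With 1 library left out, the number of called members ran from 10 to 15 for Dex in WT, 41 to 50 for IL4 in WT, 43 to 50 for IL4 against Dex in WT, 7 to 14 for Dex in KO and 21 to 33 for IL4 in KO, and was 0 throughout for KO against WT and for the interactions. The lowest count for Dex in KO, 7, came without the KO vehicle library of replicate 4, and the cause was not tested. Counts over all tested peaks with 1 library left out are not given here. Scaling to total counts moved the median of all tested peaks for IL4 against Dex to 0.09, against -0.02. With a replicate block the counts were 13 for Dex in WT, 48 for IL4 in WT, 14 for Dex in KO and 30 for IL4 in KO. Among all 130103 tested peaks they were 22456, 47219, 18876 and 41436 in the same order. Over all 60 pairs of same-numbered libraries the median r of their deviations was 0.009, against -0.003 for other pairs. Within a genotype every same-numbered r was above 0: 0.051 to 0.202 for Dex in WT, 0.053 to 0.140 for IL4 in WT, 0.003 to 0.118 for Dex in KO and 0.044 to 0.107 for IL4 in KO, with 2, 1, 2 and 1 of 4 pairs above 0.1. Between genotypes they ran from -0.064 to 0.013, with 0 above 0.1.

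Peaks of a few CPM rest on few counts, so small changes there were not detectable at this depth.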
